A study of Hormonema carpetanum with 4 samples.

Results

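The genes described here are the 120 of 10951 gene models of Hormonema carpetanum, a filamentous fungus, whose best Swiss-Prot hit is named for the breakdown of plant polysaccharides or cutin. They were chosen by words in that name (xylan, cellulase, beta-glucosidase, galactosidase, amylase, cutinase and the like), with names for 1,3-beta-glucan, pectin, polygalacturonase and transporters left out. RNA-seq was run on mycelium of the wild-type strain ATCC 74360 at day 14 of fermentation, of the mutant ENF-5-29 at day 14, and of that mutant at day 18, once from a culture at 19 °C and once from a culture at 25 °C. The mutant comes from a mutagenesis programme to raise the antifungal triterpene enfumafungin, and no temperature is labelled for the day 14 cultures. Each of the 4 groups is 1 library, so differences below were not checked against replicates and carry no p-value. The sample titles were followed for the days, although the labels' extraction protocol names 18 days for both strains.

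Plant cell walls are built of cellulose fibres held by xyloglucan, xylan, mannan and pectin, and the aerial surface is sealed by cutin, a polyester of fatty acids. Fungi that live on plants secrete endo-acting enzymes that cut the chains, exo-acting glycosidases that release single sugars, enzymes that strip side groups, and AA9 monooxygenases that break crystalline cellulose by oxidation. In fungi such as Aspergillus these genes are commonly switched on by released sugars through activators such as xlnR and are held down by the glucose repressor creA.

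The name rule reached beyond such enzymes. Of the 120 members, 103 carry a carbohydrate-active domain in the deposited Pfam column. By name, 7 members are regulators or metabolic enzymes, among them the xylanase activator xlnR and the cutinase transcription factors. A further 10 were set apart after their names and domains were read. They are a sugar symporter, a sugar phosphate isomerase, a fasciclin surface protein, a GATA factor, a SUN family protein, 4 proteins of glycoside hydrolase family GH76 that in yeast act on the fungus's own wall, and a gene with glycosyltransferase domains only. The other 103 are the enzymes the label describes, a set that differs from the 103 with a carbohydrate-active domain. In 13 gene models a carbohydrate-active domain stands beside a domain of an unrelated protein, such as calreticulin in the beta-glucosidase gene03616 and a ribosomal S13 domain in the alpha-amylase gene07068. The level of such a model may count reads of more than 1 gene, which the table cannot separate, and 11 of the 13 reach 10 TPM.

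Levels are in TPM, transcript abundance per length scaled to a library total of 1000000, a unit without read depth, which leaves counting error unknown. From 8569 to 8942 genes per library reached 1 TPM, and the 20 highest genes took 23.5% of all TPM in the wild type, against 14.1% to 16.1% in the mutant. Genes matched by name to a list meant for long proteins had a median log2 ratio of 0.98 between mutant and wild type. Between 19 °C and 25 °C it was -1.07, and for a list meant for short proteins the medians were 0.04 and 0.21. Protein lengths were not checked, and a name match can catch a protein of another length, such as RNA polymerase subunit RPB11 (gene02318) in the first list. Genes named for sporulation or the spore surface, 9 in number and none at 0 in any library, summed to 130.5 TPM in the wild type and to between 831 and 1014 TPM in the mutant libraries. Most of the mutant sums was gene06873, at 9.91 TPM in the wild type and between 635 and 924 TPM in the mutant. At day 14, 5 of 8 tested genes were higher in the mutant and 1 lower, gene10877, which held 90.56 TPM of the wild-type sum. The part of either pattern in the results below was not tested. In mycelium taken as a whole, fewer cells of a kind and less RNA per cell cannot be told apart.

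The members were a small and mostly quiet part of each transcriptome. They summed to 3027 TPM in the wild type, 2825 TPM in the mutant at day 14, 2119 TPM at 19 °C and 2722 TPM at 25 °C, which is between 0.212% and 0.303% of a library. Their median level was 4.62 TPM in the wild type and between 3.56 and 7.91 TPM in the mutant libraries, against 9 TPM and between 10.6 and 16.7 TPM for all genes. Of the 120, 61 reached 10 TPM in some library, 13 reached 100 TPM, and 13 never reached 1 TPM. A pair were listed at 0 in every library, the xylanase gene05044 and the alpha/beta-glucosidase gene08772. The 5 highest members held 56.2% of the members' TPM in the wild type, 35.8% in the mutant at day 14, and 49.7% and 50.8% at day 18 at 19 °C and 25 °C.

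**Figure D1:**
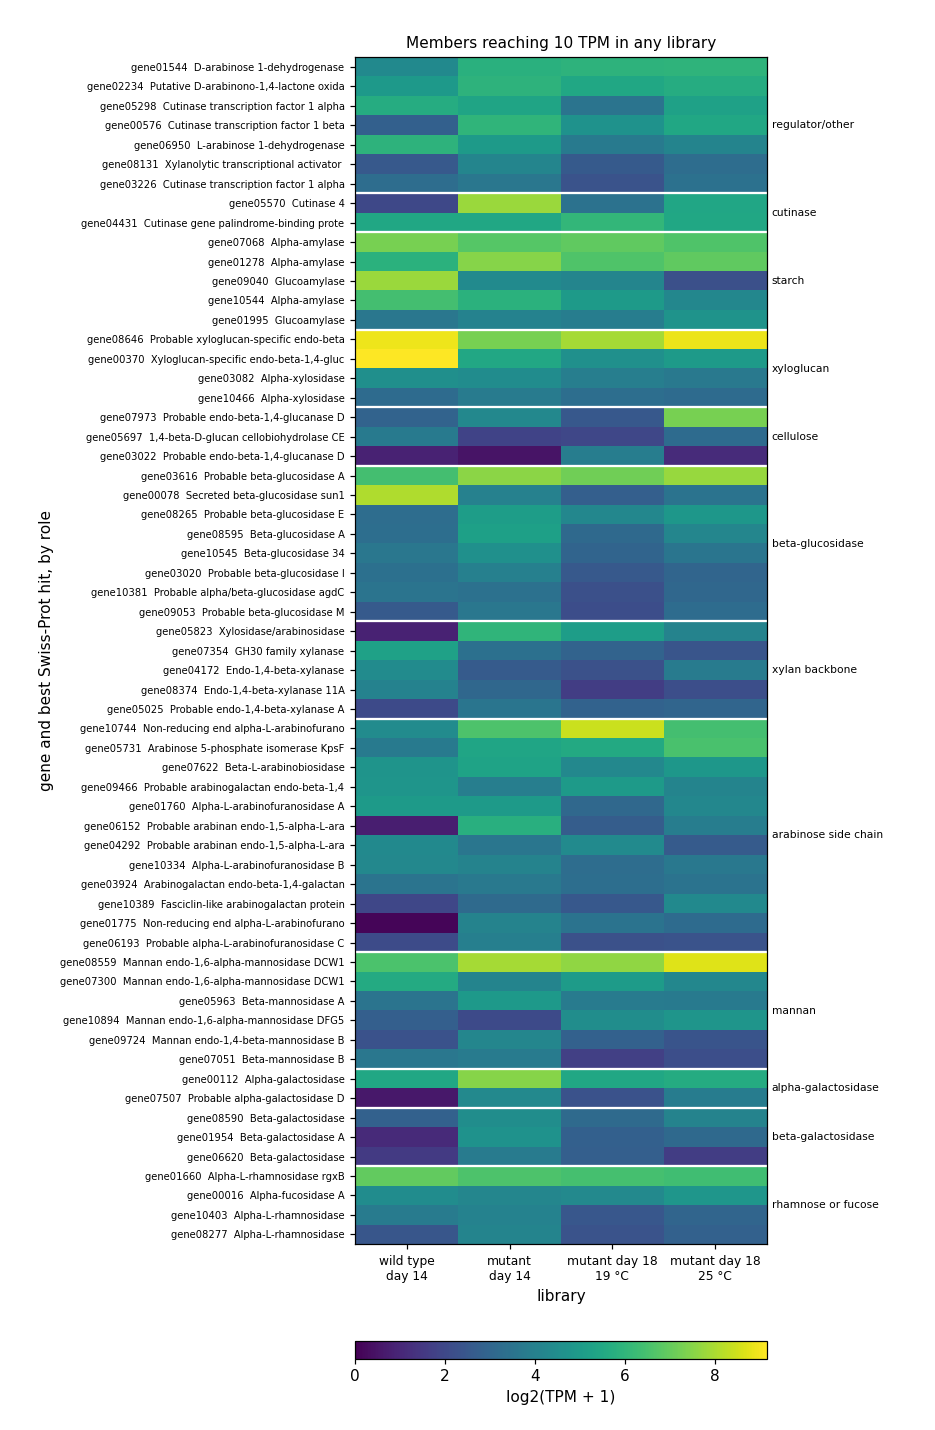
Level of the 61 members that reached 10 TPM in any library, as log2(TPM + 1) by colour, with rows grouped by role and columns for the 4 libraries. The brightest cells are the xyloglucan enzymes gene00370 and gene08646 in the wild type, gene08646 and the GH76 gene gene08559 in the mutant at 25 °C, and gene10744 at 19 °C.

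Roles differed in where they were highest. Among the 61 members at 10 TPM or more, 29 had their highest level in the mutant at day 14, 18 in the wild type, 9 in the mutant at 25 °C and 5 at 19 °C. The median of all genes was also highest in the mutant at day 14, at 16.7 TPM. Neither these counts nor those that follow were made over all genes, so they are not read as particular to the members. In 5 of them the wild type stood over 2 times above every mutant library, namely the xyloglucanase gene00370, the glucoamylase gene09040, the SUN protein gene00078 and the xylanases gene07354 and gene08374. In 13 the wild type stood below every mutant library by more than 2 times, among them the cutinase gene05570 and the arabinose-releasing gene06152, gene01775 and gene10744. Levels stayed within 2 times across all 4 libraries for 7, which are 4 of the models with an unrelated domain (gene07068, gene03924, gene01660 and gene00016), the GATA factor hit gene04431 and the alpha-xylosidases gene03082 and gene10466.

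**Figure D2:**
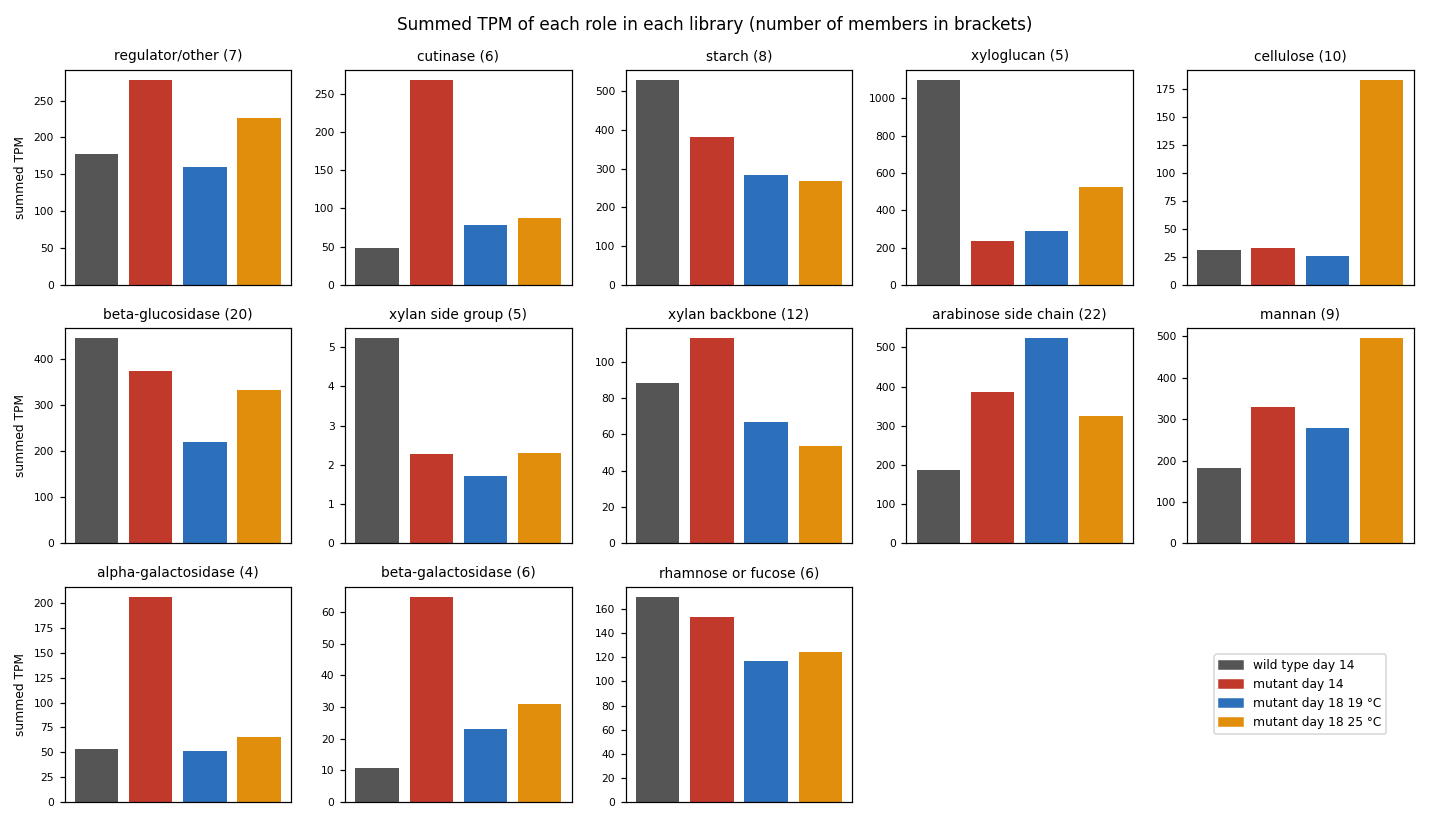
Summed TPM of the members of each of the 13 roles (vertical axes start at 0 and differ between panels), 1 bar per library. The xyloglucan bar is highest in the wild type at 1098 TPM, the cutinase and galactosidase bars in the mutant at day 14, the arabinose bar at 19 °C and the cellulose bar at 25 °C. The arabinose order rests on gene10744, without which the sum at 19 °C is 179 TPM, below 290.1 TPM in the mutant at day 14. Most of the cellulose bar at 25 °C is gene07973. Without that gene the sum there is 27.2 TPM, still the highest of the libraries. The others are then 24.55 TPM in the wild type, 15.07 TPM in the mutant at day 14 and 21 TPM at 19 °C.

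The first comparison, mutant against wild type at day 14, addresses what differs between the strains. Ratios are differences of log2(TPM + 1), which understate differences of low genes, while folds are plain ratios of TPM. A gene was tested when it reached 1 TPM in 1 of the 2 libraries, and called at 2-fold. A cutinase, 4 of 5 tested beta-galactosidases and single arabinose-releasing genes stood higher in the mutant library, and 3 GH12 genes for xyloglucan and 4 genes named xylanase stood lower. As a whole set, the members' shares lay near those of all genes. Of 102 tested members 38 were higher in the mutant and 16 lower, or 37.3% and 15.7%, against a background of 40.7% and 14% of 9272 tested genes. Counts for single roles and lists, here and in the later comparisons, rest on few genes and are to be read beside such shares. Their median log2 ratio was 0.59, beside 0.64 for all tested genes. Because that general shift of 0.64 depends on the scaling, calls were also made after dividing each library by its median ratio to the others, which brought the median of all genes to -0.05. After that step 20 members were higher and 29 lower, beside 24.6% and 25.7% of all genes. The direction of the set therefore follows the scaling, and so do the calls of some members named below. Of these, gene08559, gene08590, gene01544, gene02234, gene07973, gene05025, gene05731, gene10389 and gene08593 were called higher only before rescaling, with rescaled log2 ratios from 0.27 for gene02234 to 0.91 for gene08590. The members gene05298, gene06950, gene07068, gene10544, gene10608, gene09466, gene04292, gene10894, gene01660 and gene08753 were called lower only after it, with rescaled log2 ratios from -1.66 for gene06950 to -1.06 for gene05298. For gene08131, gene01278, gene03616 and gene08277 the rescaled value is given beside the ratio.

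**Figure D3:**
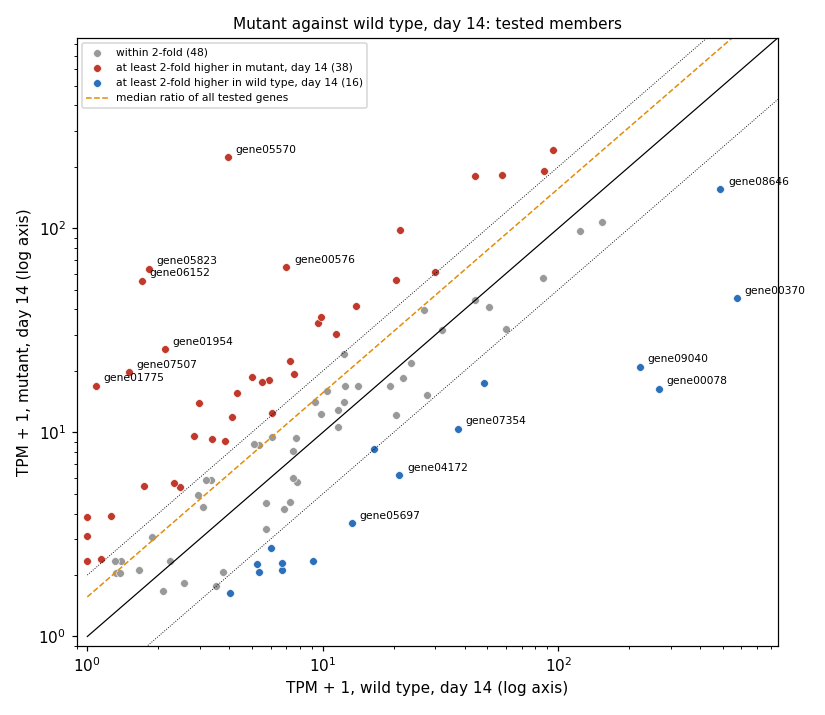
TPM + 1 of the 102 tested members in the mutant (vertical) and the wild type (horizontal) at day 14, both on log axes, 1 point per gene. The solid line marks equal levels, the dotted lines 2-fold, and the dashed line the median ratio of all tested genes. Of the coloured points 38 lie above the upper dotted line and 16 below the lower one, with gene05570 farthest above and gene00078 and gene00370 farthest below.

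Xyloglucan, a glucan chain with xylose side groups that coats cellulose, is cut by endoglucanases of family GH12. Of 5 members for this polymer 3 were lower in the mutant and 0 higher, and the role's summed level was 1098 TPM in the wild type, against 234 TPM in the mutant at day 14. The GH12 gene gene00370 stood at 572 TPM in the wild type, 44.3 TPM in the mutant at day 14, and 23.4 TPM and 31.2 TPM at day 18 at 19 °C and 25 °C. Every mutant library was far below the wild type, by 12.9-fold at day 14, with a log2 ratio of -3.66. A second GH12 gene, gene08646, stood at 488 TPM in the wild type, 154 TPM in the mutant at day 14, 244 TPM at 19 °C and 474 TPM at 25 °C. Here the day 14 mutant was 3.16-fold below the wild type, but the 25 °C library was close to the wild-type value. The third, gene09993, was low throughout, at 8.10 TPM in the wild type and between 0.23 and 1.48 TPM in the mutant. The alpha-xylosidases, which remove xylose side groups from xyloglucan fragments, differed little, gene03082 ranging from 11.98 to 22.68 TPM and gene10466 from 8.27 to 13.1 TPM over the 4 libraries.

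Xylan, the main hemicellulose of many plants, is cut inside the chain by xylanases of families GH10, GH11 and GH30, and its fragments are trimmed by xylosidases. Of 10 tested members for the backbone 3 were higher in the mutant and 4 lower. All 4 lower genes were named xylanase, but not all xylanases were lower. The xylanase A hit gene05025, which carries an AA9 domain, was higher, at 3.13 TPM in the wild type against 10.9 TPM in the mutant, and the GH10 gene gene10540 stood at 1.95 TPM and 3.95 TPM. The GH30 xylanase gene07354 stood at 36.4 TPM in the wild type, 9.41 TPM in the mutant at day 14, 6.53 TPM at 19 °C and 4.29 TPM in the 25 °C culture. The GH10 xylanase gene04172 stood at 20.2 TPM, 5.16 TPM, 3.89 TPM and 12.9 TPM in the same order, so its 25 °C value was nearer to the wild type. The GH11 xylanase gene08374 stood at 15.6 TPM in the wild type, against 7.26 TPM, 2.17 TPM and 3.62 TPM in the mutant libraries, at the edge of the call at day 14 with a 2.14-fold difference. Against these, gene05823, a GH43 gene with a best hit to a bacterial xylosidase/arabinosidase, stood at 0.83 TPM in the wild type, 62.2 TPM in the mutant at day 14, and 33.3 TPM and 16.3 TPM at day 18. It was 75.0-fold higher at day 14. Genes named for removing acetyl groups from xylan, 4 of which carry the cutinase domain, were hardly expressed, the highest of the 5, gene08119, reaching 3.05 TPM in the wild type. The others, gene03130, gene01093, gene02253 and gene02546, lay between 0 and 1.57 TPM.

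The cellulose members were low at day 14, with no single one above 18.3 TPM. Cellobiohydrolases release the disaccharide cellobiose from chain ends, and the GH6 gene gene05697 stood at 12.3 TPM in the wild type, 2.59 TPM in the mutant at day 14, 2.84 TPM at 19 °C and 8.30 TPM in the 25 °C culture. The day 14 ratio was 4.74-fold in favour of the wild type. The GH7 gene gene05046, named cellobiohydrolase B, never exceeded 1.11 TPM. Of 7 tested cellulose members 2 were higher in the mutant and 1 lower, and after rescaling 1 was higher and 3 were lower. Beta-glucosidases, which split cellobiose and other short glucosides, had 7 of 19 tested members higher and 3 lower, and 4 in each direction after rescaling. Beta-glucosidase A gene08595 stood at 8.85 TPM in the wild type, 35.8 TPM in the mutant at day 14, 7.72 TPM at 19 °C and 17.5 TPM in the 25 °C culture. The most abundant, gene03616, stood at 85.8 TPM, 189 TPM, 145 TPM and 214 TPM, and its log2 ratio between the strains of 1.13 became 0.36 after rescaling. Its model also holds the calreticulin domain named above. The lower member with the largest ratio of all was gene00078, best hit sun1, a protein that in Aspergillus fumigatus belongs to the fungus's own wall, at 267 TPM in the wild type, against 15.4 TPM, 5.85 TPM and 10.2 TPM in the mutant libraries.

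Arabinose side chains decorate xylan and pectin, and arabinofuranosidases and arabinanases remove them. Of 18 tested members with arabinose in the name 9 were higher in the mutant and 0 lower, which became 5 higher and 2 lower after rescaling. Of the 9, 6 were among 15 tested glycosidases, a share near the 40.7% of all genes, and 5 of 18 after rescaling is 27.8% beside 24.6%, so the role lay near the background. The other calls were the symporter gene00811, the isomerase gene05731 and the fasciclin protein gene10389. The endo-arabinanase gene06152 stood at 0.70 TPM in the wild type, 54.4 TPM in the mutant at day 14, 5.51 TPM at 19 °C and 13.7 TPM in the 25 °C culture. The GH43 arabinofuranosidase gene01775 stood at 0.09 TPM in the wild type, against at 16.0 TPM, 10.1 TPM and 8.20 TPM in the mutant libraries. A related GH43 gene, gene10744, stood at 20.3 TPM, 97.1 TPM, 344 TPM and 85.1 TPM, so it was 4.77-fold higher in the day 14 mutant and highest by far at 19 °C. Some arabinan and galactan enzymes were not higher in the mutant. The endo-arabinanase gene04292 stood at 19.5 TPM in the wild type, against 11.2 TPM in the mutant at day 14, and the endo-galactanase gene09466 at 26.6 TPM and 14.2 TPM.

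Galactosidases remove galactose from mannan, xyloglucan and other chains. For alpha-galactosidase 2 of 4 members were higher in the mutant and 1 lower, and the counts were the same after rescaling. Alpha-galactosidase gene00112 stood at 43.3 TPM in the wild type, 179 TPM in the mutant at day 14, 43.2 TPM at 19 °C and 48.7 TPM at 25 °C. Only the day 14 mutant stood apart, by 4.14-fold from the wild type. Alpha-galactosidase D gene07507 stood at 0.50 TPM, 18.7 TPM, 4.00 TPM and 13.4 TPM, 37.4-fold higher in the mutant at day 14. The lower member was alpha-galactosidase B gene08586, at 5.70 TPM in the wild type and between 0.83 and 1.28 TPM in the mutant, and the other hit of that name, gene08931, stood at 4.12 TPM and 7.73 TPM at day 14.

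Beta-galactosidases, which trim galactose from the outer ends of side chains, had 4 of 5 tested members higher in the mutant and 0 lower, and 3 higher after rescaling. The role's summed level was 10.8 TPM in the wild type, 64.9 TPM in the mutant at day 14, 23.1 TPM at 19 °C and 30.8 TPM in the 25 °C culture. The GH35 gene gene01954 stood at 1.14 TPM in the wild type, 24.5 TPM in the mutant at day 14, 5.96 TPM at 19 °C and 7.79 TPM at 25 °C. It was 21.5-fold higher at day 14. The gene06620 enzyme stood at 1.97 TPM, 12.9 TPM, 5.82 TPM and 2.19 TPM, and gene08590, whose model also holds amino acid permease domains, at 6.26 TPM, 21.4 TPM, 7.94 TPM and 16.0 TPM. The remaining members, gene09525, gene00090 and gene08021, stayed at 4.46 TPM or less.

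Mannan, a hemicellulose of mannose, is cut by endo-mannanases and finished by beta-mannosidases. Of 9 members 3 were higher in the mutant and 2 lower, but after rescaling 1 was higher and 4 were lower. The endo-mannanase gene09724 stood at 3.99 TPM in the wild type, 17.7 TPM in the mutant at day 14, 6.26 TPM at 19 °C and 4.19 TPM at 25 °C, in a model that also holds sugar transporter domains. The most abundant member, gene08559, is a GH76 protein, whose yeast counterpart DCW1 helps to attach proteins to the fungal wall. It stood at 93.6 TPM in the wild type, 241 TPM in the mutant at day 14, 200.3 TPM at 19 °C and 417 TPM at 25 °C. A second gene of this kind, gene07300, went the other way at day 14, at 47.4 TPM and 16.5 TPM. Enzymes for rhamnose and fucose were close to level. Of 6 members 1 was higher, the rhamnosidase gene08277, whose log2 ratio of 1.69 became 0.99 after rescaling, and 0 were lower, against 2 lower after rescaling.

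The most abundant of the rhamnose and fucose enzymes, the rhamnosidase gene01660, ranged from 81.1 to 123 TPM over the libraries. The fucosidase gene00016 ranged from 17.4 to 27.2 TPM, and both models hold a domain of another protein. The rhamnosidase gene10403 stood at 13.1 TPM in the wild type, against 15.9 TPM in the mutant at day 14, and at 4.56 TPM and 6.95 TPM at day 18. Low throughout were the fucosidases gene04605 and gene08753, which did not exceed 3.31 TPM and 6.26 TPM.

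Starch, the plant's storage glucan, is cut by alpha-amylase and trimmed to glucose by glucoamylase. Of 7 tested members 2 were higher in the mutant and 1 lower, and after rescaling 0 were higher and 3 lower. Glucoamylase gene09040 stood at 221 TPM in the wild type, 20 TPM in the mutant at day 14, 17.1 TPM at 19 °C and 3.68 TPM in the 25 °C culture. The wild type was 11.04-fold above the day 14 mutant. A second glucoamylase with a starch-binding module, gene01995, differed less, at 11.4 TPM, 15.8 TPM, 13.7 TPM and 25.0 TPM. The alpha-amylase gene01278 stood at 56.6 TPM in the wild type, against 181 TPM in the mutant at day 14, with a log2 ratio of 1.66 that became 0.89 after rescaling. The highest on average was the alpha-amylase gene07068, between 98.5 and 153 TPM, whose model includes the ribosomal domain.

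Cutinases cut the polyester of the plant surface. Of the 6 members in this role 5 were cutinases by name and domain, and of these only gene05570 was expressed at more than 2.08 TPM. It stood at 2.96 TPM in the wild type, 221 TPM in the mutant at day 14, 9.90 TPM at 19 °C and 42.1 TPM in the 25 °C culture. At day 14 it was 74.8-fold higher in the mutant. Its log2(TPM + 1) difference of 5.81 exceeded that of every other tested member, although the plain folds of gene01775, gene06152 and gene05823, which are lower in level, were larger. The others, gene02832, gene04314, gene05808 and gene07296, lay between 0 and 2.08 TPM. The sixth, gene04431, has a best hit to a GATA-type protein that in Fusarium binds a palindrome of the cutinase promoter, and stood at 43.5 TPM, 43.4 TPM, 66.7 TPM and 43.4 TPM.

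Regulators named for these enzymes differed among themselves. In Fusarium the cutinase transcription factors act at the cutinase gene. The hit to factor 1 beta, gene00576, stood at 6 TPM in the wild type, 63.4 TPM in the mutant at day 14, 24.5 TPM at 19 °C and 42.7 TPM in the 25 °C culture. The hits to factor 1 alpha, gene05298 and gene03226, stood at 49.9 and 40.3 TPM and at 8.79 and 11.3 TPM in the wild type and the mutant at day 14, and at 10.6 and 36.7 TPM and at 4.06 and 9.79 TPM at 19 °C and 25 °C. These hits, gene00576 and the xlnR hit below all had the mutant order of day 14, then 25 °C, then 19 °C, which is also the order of the median of all genes. The xlnR hit, gene08131, stood at 4.90 TPM, 17.0 TPM, 4.99 TPM and 8.72 TPM, with a log2 ratio between the strains of 1.61, or 0.92 after rescaling. The metabolic enzymes caught by the rule were D-arabinose dehydrogenase gene01544, at 19.5 TPM and 54.8 TPM, D-arabinono-1,4-lactone oxidase gene02234, at 28.9 TPM and 60.2 TPM, and L-arabinose dehydrogenase gene06950, at 59.0 TPM and 31.1 TPM. The first pair make an ascorbate-like antioxidant in yeast and do not act on plant walls.

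Genes around these enzymes in the breakdown and use of plant sugars were counted from lists of names. In the list meant for the use of pentoses, galactose and rhamnose, 12 of 20 tested genes were higher in the mutant and 1 lower. After rescaling these became 7 and 4. Matched by name, the list also holds enzymes named for other compounds, such as L-galactonate dehydratase gene04656 and the 1-deoxyxylulose-5-phosphate synthase hit gene05190. L-galactonate dehydratase gene04656 stood at 9.10 TPM in the wild type, against 101 TPM in the mutant at day 14, and the only gene lower before rescaling, D-xylulose kinase gene02946, which feeds xylose carbon into the pentose phosphate pathway, at 66.2 TPM and 15.3 TPM. Other cellulose-active proteins had more lower calls, with 1 of 10 higher and 6 lower, or 0 and 7 after rescaling. Outside the members, the endoglucanase gene06665 stood at 289 TPM in the wild type, 155 TPM in the mutant at day 14, 23.1 TPM at 19 °C and 28.1 TPM in the 25 °C culture. The expansin-like gene07720 stood at 41.7 TPM and 138 TPM, and the AA9 gene gene08215 at 10.8 TPM and 1.35 TPM. Among esterases and glucuronidases, which strip phenolic and acid groups, 5 of 15 were higher and 2 lower, and after rescaling 4 were higher and 8 lower. That list also caught ferulic acid decarboxylase gene07210, among the lower genes at 7.04 TPM and 0.48 TPM. It shares the rhamnogalacturonan acetylesterases gene03309 and gene08161 with the pectin list below. There, the beta-glucuronidase gene04441 stood at 0.20 TPM and 76.8 TPM, and the feruloyl esterase gene07281 at 1087 TPM and 278 TPM. The list of alpha-glucosidases and sucrases, which also caught trehalases and the glucan endo-1,3-alpha-glucosidase gene04657, was split, 4 of 8 higher and 3 lower, or 3 and 3 after rescaling. In it acid trehalase gene05239 stood at 3.33 TPM and 55.4 TPM and the alpha-glucosidase gene07382 at 61.75 TPM and 10.98 TPM. The creA hit, gene03389, stood at 16.6 TPM in the wild type, against 65.5 TPM, 52.8 TPM and 97.9 TPM in the mutant libraries.

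Pectin-degrading enzymes, the nearest set of wall enzymes, had 14 of 25 tested genes lower in the mutant and 4 higher, or 56.0% lower beside 15.7% of the members. Their summed level was 12374 TPM in the wild type, against 606 TPM in the mutant at day 14. In the list for the fungus's own wall glucan and chitin 10 of 45 were lower and 13 higher, but 12 lower and 6 higher after rescaling. By its name pattern that list also caught a regulator of an ascochitine cluster, gene02094. The pectin list had 17 lower and 1 higher after that step. The difference between these shares was not tested.

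The second comparison, the mutant at day 18 at 19 °C against 25 °C, addresses the fermentation temperature. In the cellulose role 4 of 6 tested members stood lower at 19 °C, and most members were within 2-fold. Few stood higher, among them gene03022 by 11.7-fold, the glucoamylase gene09040 by 4.63-fold and the arabinofuranosidase gene10744 by 4.04-fold. Of 96 tested members 6 were higher at 19 °C and 20 lower, or 6.25% and 20.8%, against 10.9% and 21.4% of 9064 tested genes. The members' median log2 ratio was -0.38, beside -0.21 for all genes. After rescaling 8 were higher and 14 lower, against 14.5% and 17.5% of all genes.

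**Figure D4:**
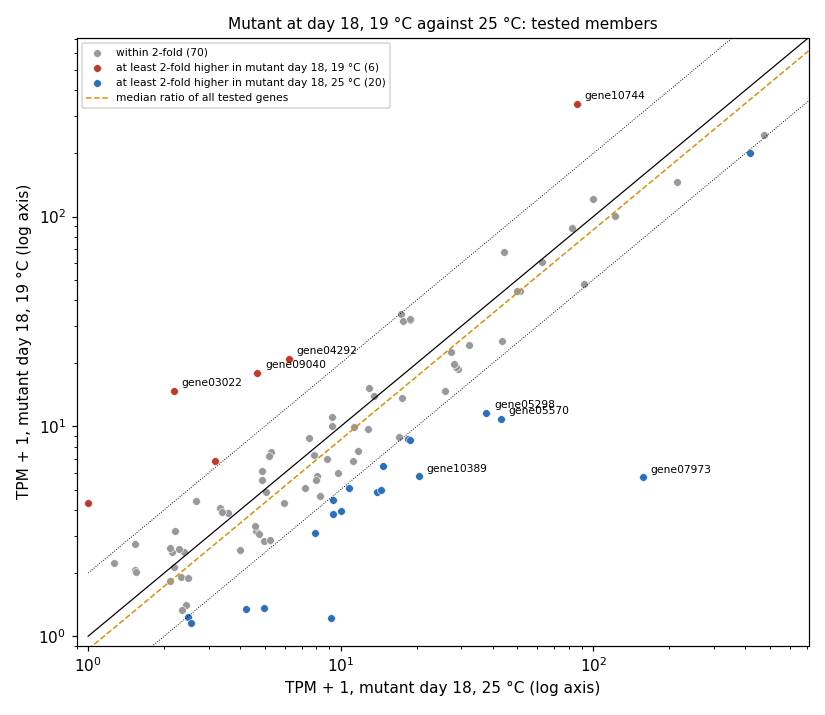
TPM + 1 of the 96 tested members in the mutant at day 18 at 19 °C (vertical) and 25 °C (horizontal), both on log axes, 1 point per gene, with lines as in the plot of the strains. Of the points 70 lie between the dotted 2-fold lines, gene07973 lies farthest below them, and gene10744 is the most abundant of the 6 above them.

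Among the cellulose members 4 of 6 tested were lower at 19 °C and 1 higher. The AA9 gene gene07973, annotated as endoglucanase D, stood at 4.71 TPM at 19 °C, against 156 TPM at 25 °C, against 6.57 TPM in the wild type, against 18.3 TPM in the mutant at day 14. The 25 °C library thus stood above all 3 others, by 33.1-fold over the 19 °C library. A second AA9 gene, gene01648, stood at 0.22 TPM and 8.17 TPM, the cellobiohydrolase gene05697 at 2.84 TPM and 8.30 TPM, and the endoglucanase gene09457 at 0.36 TPM and 3.99 TPM. The one higher member, gene03022, at 13.8 TPM at 19 °C, against 1.18 TPM at 25 °C, shares the endoglucanase D name but carries glycosyltransferase domains and no AA9 domain.

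The AA9 family was then followed over the whole table, a choice made after these values were seen. It held 6 genes, 4 of them members. Their summed level was 109 TPM in the wild type, 178 TPM in the mutant at day 14, 23.5 TPM at 19 °C and 295 TPM in the 25 °C culture. The AA9 gene gene02875, named endoglucanase-4, stood at 81.8 TPM, 140 TPM, 9.98 TPM and 121 TPM, so it was low at 19 °C alone, whereas gene07973 was high at 25 °C alone. Not every AA9 gene followed, as gene05025, whose best hit is named xylanase A, stood at 6.34 TPM at 19 °C, against 6.84 TPM at 25 °C. Cellobiose dehydrogenase can hand electrons to AA9 enzymes. Of its 4 genes gene03915 stood at 10.8 TPM in the wild type, 3.95 TPM in the mutant at day 14, 6.10 TPM at 19 °C and 90.4 TPM in the 25 °C culture, and gene02337 at 5.90 TPM, 2.44 TPM, 0.53 TPM and 37.3 TPM. Both were highest at 25 °C, whereas gene10609 stood at 7.47 TPM at 19 °C, against 4.65 TPM at 25 °C.

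**Figure D5:**
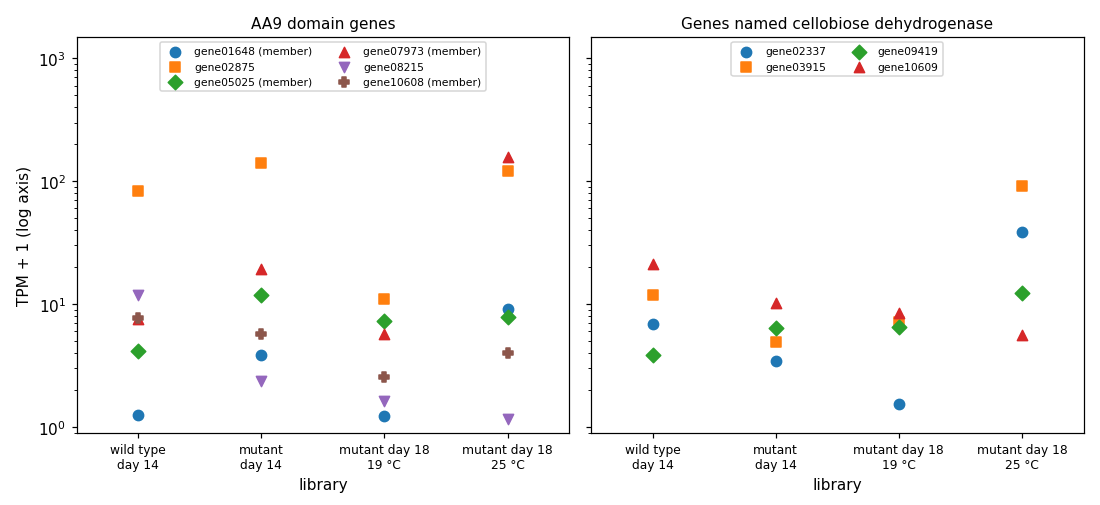
TPM + 1 on a log axis of the 6 genes with an AA9 domain (left) and the 4 genes named cellobiose dehydrogenase (right) in each of the 4 libraries, 1 symbol per gene. In the 25 °C column gene07973 and gene02875 lie above 100 TPM and gene03915 at 90.4 TPM, while at 19 °C no gene of either panel exceeds 9.98 TPM.

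In the mannan role 3 of 8 tested members were lower at 19 °C and 0 higher, namely the GH76 genes gene08559 and gene01809 and the endo-mannanase gene07659, or 2 lower after rescaling. The pectin list had 7 of 25 genes lower and 4 higher, and the fungal wall list 20 of 45 lower and 0 higher, or 15 and 2 after rescaling. The arabinofuranosidase gene10744, at 344 TPM at 19 °C, against 85.1 TPM at 25 °C, was 4.04-fold higher at 19 °C, and the endo-arabinanase gene04292, at 19.96 TPM and 5.25 TPM, 3.80-fold higher. The glucoamylase gene09040 stood at 17.1 TPM and 3.68 TPM, 4.63-fold higher at 19 °C. Lower at 19 °C were the cutinase gene05570 by 4.25-fold, the cutinase factor 1 alpha hit gene05298 by 3.46-fold, at 10.6 TPM and 36.7 TPM, and alpha-galactosidase D gene07507 by 3.36-fold. The xylanase gene04172, the endo-arabinanase gene06152 and the fasciclin protein gene10389 were lower by 3.33-fold, 2.48-fold and 4.07-fold. Calls for gene08595, gene08559 and the arabinofuranosidase gene01760, with log2 ratios of -1.09, -1.06 and -1.14, became -0.91, -0.86 and -0.96 after rescaling and so depended on it, as did those for gene03226 and gene09993, at -0.93 and -0.95. In contrast gene05823 and gene09466 were called higher at 19 °C only after rescaling, at 1.17 and 1.03. The xyloglucanase gene08646 stood just inside the line, at 1.94-fold. Rhamnose and fucose enzymes had 0 of 6 members called in either direction.

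The remaining comparisons set the mutant at day 18 against the day 14 library, which both share with the strain comparison, so their counts are not independent of it. At 25 °C 9 of 104 tested members were higher than at day 14 and 22 lower, or 8.65% and 21.2%, against 14.1% and 24.4% of 9236 tested genes. At 19 °C 4 of 102 were higher and 42 lower, or 3.92% and 41.2%, against 7.97% and 27.9% of 9119 tested genes. After rescaling the counts were 11 higher and 16 lower at 25 °C, beside 19.6% and 14.8% of all genes, and 8 higher and 19 lower at 19 °C, beside 15.4% and 10.6%. The medians of the members were -0.43 at 25 °C and -0.83 at 19 °C, and those of all genes -0.30 and -0.55.

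Several genes that stood high in the day 14 mutant stood lower in both day 18 libraries. The cutinase gene05570 was 5.26-fold lower at 25 °C and 22.4-fold lower at 19 °C than at day 14. The endo-arabinanase gene06152 was 3.98-fold and 9.87-fold lower, alpha-galactosidase gene00112 3.67-fold and 4.14-fold lower, and the beta-galactosidase gene01954 3.15-fold and 4.11-fold lower. Arabinofuranosidase C gene06193, at 14.7 TPM at day 14, stood at 3.86 TPM at 19 °C, against 4.05 TPM at 25 °C. Beta-mannosidase B gene07051 was outside the 2-fold line at both temperatures as well, at 13.02 TPM at day 14 and at 2.35 TPM and 3.58 TPM at day 18, although it stood level between the strains. The alpha-amylase hit gene10544, in which only a starch-binding domain was found, at 56.2 TPM at day 14, was 3.16-fold lower at 25 °C. Alpha-galactosidase D gene07507 and beta-glucosidase A gene08595 were 4.67-fold and 4.63-fold lower at 19 °C.

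Fewer members stood higher at day 18. The cellulose role had 4 of 7 tested members higher at 25 °C and 0 lower, with gene07973 8.53-fold higher, while at 19 °C 1 was higher and 3 were lower. The xyloglucanase gene08646 was 3.07-fold and the xylanase gene04172 2.51-fold higher at 25 °C. At both temperatures the GH76 gene gene10894, best hit DFG5, stood above day 14, at 3.20 TPM at day 14, 21.7 TPM at 19 °C and 26.4 TPM at 25 °C. In the 19 °C library gene10744 was 3.54-fold and the endo-galactanase gene09466 2.17-fold higher than at day 14. The list for the use of pentoses, galactose and rhamnose had 14 of 20 genes lower at 25 °C and 2 higher, and 9 lower at 19 °C and 1 higher.

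Members were also set side by side by gene number, since the table gives no coordinates and does not say that neighbouring numbers are neighbouring genes. Of the 120, 24 lay in 10 runs with gaps of 5 numbers or fewer. The longest run held 5 members within 10 numbers, gene08586 to gene08595, an alpha-galactosidase, a beta-galactosidase, a pair of beta-glucosidases and an arabinofuranosidase. These did not share a direction, since 3 were higher in the mutant at day 14 and 2 lower. In that run gene08593, the arabinofuranosidase, stood at 2.37 TPM in the wild type, against 8.27 TPM in the mutant, and gene08592, a beta-glucosidase, at 4.36 TPM and 1.06 TPM. The xyloglucanase gene00370 lay 2 numbers from the pectinesterase gene00372, which stood at 483 TPM in the wild type, with between 0.32 and 2.53 TPM in the mutant libraries, so both were high in the wild type alone. The AA9 member gene10608 lay next to the cellobiose dehydrogenase gene10609, and both were highest in the wild type, at 6.75 TPM and 20.2 TPM. The order of the members by level was closer among the mutant libraries than between them and the wild type. Across the 107 members at 1 TPM or more in some library the Spearman correlation lay between 0.67 and 0.70 with the wild type and between 0.85 and 0.88 among the mutant libraries. All 9508 genes at that level showed the same split, with 0.67 to 0.74 and 0.86 to 0.91, and these points are genes, not replicates.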

How the data were processed

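The authors deposited TPM values for 4 libraries and 10951 genes, with 2 decimals and a sum of 1000000 per library. Per the labels' protocols, a SMARTER kit for mRNA was used. How reads were aligned and counted, and on which build, is not given in the sources used here. Columns were matched by the library names in the labels. Names are those of best hits and do not show function; no sequence or coordinate was used. Members and lists were chosen with earlier results of these data known. Ratios are log2(TPM + 1), with a minimum of 1 TPM in 1 of the 2 libraries and a 2-fold call. TPM are no counts, so count models were left out, and 1 library per group allows no test. Named in each comparison are up to 12 members per direction at 10 TPM or more, the highest member of each role, all members of roles with 6 or fewer, and the extreme genes of each surrounding list. The xylanases, AA9, GH43 and cellobiose dehydrogenase genes, neighbours and low examples were added after values were seen. Alternatives were pseudocounts of 0.1 and 5, no filter, a 10 TPM filter, a 4-fold call, rescaling by the median ratio or without the 20 highest genes, and smaller member sets. The steps, run in Python 3.11.15 with pandas 2.3.3, were tested on simulated data.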

Additional observations from a re-analysis of the deposited data

Results flagged for a closer look

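A pair of members were called in opposite directions at the 2 temperatures when each day 18 library was set against the day 14 mutant library. How many of all genes were called so was not counted, so the number is not read as particular to the members. The AA9 gene gene07973 had a log2 ratio of -1.76 at 19 °C and 3.02 at 25 °C, and the AA9 gene gene01648 of -1.67 and 1.24. The second is low, reaching 8.17 TPM at most. The comparisons share the day 14 library, whose temperature is not labelled, and the difference was not tested.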

How the results depend on the processing

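With pseudocounts of 0.1 and 5 and both rescalings, 276 ratios were recomputed for the up to 12 most extreme members per direction and comparison. Of these, 263 stayed past 2-fold in the same direction, 13 fell inside it and 0 changed sign. These members were picked as past 2-fold at 10 TPM or more, so the share does not cover the other named members. Between the strains, 38 higher and 16 lower members became 24 and 9 with a pseudocount of 5, 10 and 3 at a 4-fold threshold, and 20 and 29 after rescaling by the median ratio, while a filter of 10 TPM left 9 lower. The log2 ratio of the members' summed TPM moved from -0.10 to -0.88 on that rescaling, and against day 14 it turned from -0.05 to 0.31 at 25 °C and from -0.42 to 0.14 at 19 °C, each inside 2-fold. Between temperatures, 20 lower members became 8 with a pseudocount of 5 and 10 with the 10 TPM filter, and a 4-fold threshold left 3 higher and 2 lower. For day 18 at 25 °C against day 14, 9 higher and 22 lower became 4 and 12 with a pseudocount of 5, and 2 and 4 at 4-fold. At 19 °C, 4 higher and 42 lower became 2 and 5 at 4-fold and 8 and 19 after rescaling; the lower count was 21 with a pseudocount of 5 and 26 with the 10 TPM filter. Without the non-degrading and other-function proteins, a set chosen after seeing the data, 2 were higher. Fewer genes pass a stricter filter or threshold by construction, and for the other changes the cause was not tested. Leaving out gene models with an unrelated domain, also added later, moved no count by over 1.5 times. No paired analysis was possible because each group has 1 library. TPM keep no depth, which leaves the error of low values unknown.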

Other observations

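The rule on names missed relatives of its members. Of 19 genes with a GH43 domain, the family of several arabinose- and xylose-releasing enzymes, 9 were members and 10 were not, among them genes with no Swiss-Prot hit and genes whose hit name is truncated in the table to extracellular exo-alpha or endo-alpha. Their levels, read after the members were known, did not follow 1 pattern. The GH43 gene gene01534, without a hit, stood at 70.6 TPM in the wild type, 66.6 TPM in the mutant at day 14, 177 TPM at 19 °C and 348 TPM at 25 °C. Another, gene03938, stood at 0.15 TPM, 2.68 TPM, 68.0 TPM and 133 TPM, so it too was highest at day 18. Against that direction gene02075 stood at 42.4 TPM, 20.7 TPM, 5.53 TPM and 4.56 TPM. The summed level of all 19 was 230 TPM in the wild type, 439 TPM in the mutant at day 14, and 720.2 TPM and 662 TPM at day 18 in the cooler and the warmer culture.

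The feruloyl esterase gene07281, whose product frees phenolic groups from xylan, was more abundant than any member in 3 of the 4 libraries, at 1087 TPM in the wild type, 278 TPM in the mutant at day 14, 64.1 TPM at 19 °C and 765 TPM at 25 °C. As with the AA9 gene gene02875, its lowest value was at 19 °C.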
